A study of Saccharomyces cerevisiae with 24 samples.

Results

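The 3′ major domain of yeast 18S ribosomal RNA folds into the head of the small ribosomal subunit, and its reactivity to dimethyl sulfate (DMS) was followed in precursor and mature particles of Saccharomyces cerevisiae. The domain was taken as n1141 to n1625 of 18S (n, nucleotide), within RDN37, the polymerase I transcript from chromosome XII in which 18S follows a 700-nucleotide leader and precedes 5.8S and 25S. It holds 485 nucleotides, of which the 219 A and C (114 A and 105 C) are the members, out of 831 A and C in 18S and 3131 in the 6858 nucleotides of RDN37. Sites are named by base and 18S position. The rule used positions and base letters and no measured value.

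The study used DMS-MaPseq in 24 libraries, 3 biological replicates in each of 8 groups. Pre-40S particles came from a Utp9_TAP purification, the tag being on a protein of the early small-subunit precursor, out of cells with wild-type Rrp5 (WT) or Rrp5_mL (mL). Both kinds of cell carried H375A. Not given in the sources used here are the meaning of mL and the protein that H375A is in. Mature ribosomes came from the laboratory strain BY4741 and from BY4741 Δsnr31Δsnr54 (the deletion strain), which lacks a pair of small nucleolar RNAs that guide modification of 18S outside the head. All cells were grown in YPD to mid-log phase, and each of the 4 kinds of particle was taken with 1% DMS and without it. Treatment lasted 5 min at 30 °C in a buffer of 50 mM Mg(OAc)2, 500 mM NaCl and 800 mM HEPES in the presence of 0.2 µM RNase P RNA of Bacillus subtilis. The pre-40S and the mature particles belong to separate experiments, so particle, strain and experiment cannot be told apart.

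DMS adds a methyl group to A and C whose pairing edge is free of a base pair and of protein, and reverse transcription with TGIRT-III leaves a mismatch in the cDNA at such a base. The mutation rate, given here as the percentage of reads that were mutated at a site, therefore rises with exposure of the base. A rate is an average over all particles in the tube, so fewer particles with an open base and a lower exposure in each particle cannot be told apart. The head carries the beak, a protruding arm built on helix 33, and forms the upper side of the decoding centre: the loop of helix 31 lies at the P site, where the initiator or peptidyl transfer RNA sits, and helix 34 lies at the A site, where the next transfer RNA enters. During assembly the head is built after the 5′ domain, and in late precursors the beak and the transfer RNA sites are covered by assembly factors.

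The stretches on which the results turn are printed 5′ to 3′ as the deposited profiles give them. In the first set, capitals mark A and C whose rate was higher in pre-40S than in mature particles in both particle comparisons described further on.
Helix 31 and the stretch after it, n1184 to n1212: auuugaCucaaCacggggaaAcucACCAg
Base of the beak, n1213 to n1235: guccagaCacAAuaaggAuugac
3′ strand of helix 34, n1420 to n1442: caauaacaggucugugaugCccu
Helix 41 stretch, n1485 to n1530: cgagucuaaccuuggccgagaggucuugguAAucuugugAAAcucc
Start of the last section, n1570 to n1588: ACgaggAAuuccuAguAAg
In the second set, capitals mark A and C whose rate was lower in pre-40S in both comparisons.
Base of the beak, n1213 to n1235: guccAgAcacaauAAggauugaC
5′ strand of helix 34, n1264 to n1287: ggugguggugCauggccguucuua
Helix 41 stretch, n1485 to n1530: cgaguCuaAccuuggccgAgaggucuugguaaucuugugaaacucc
The base of the beak held both kinds within 23 nucleotides, 4 higher and 5 lower. In the third set, capitals mark the bases between 2 neighbouring runs that can pair with each other, G-U pairs allowed, and are shown because several of the most reactive members lie there.
Tip of the beak, n1236 to n1259: agauugagagCUCUuucuugauuu
Hairpin in helices 35 to 40, n1354 to n1369: gcuagcAUUUgcuggu
Second hairpin in helices 35 to 40, n1389 to n1409: cuaucgguuUCAagccgaugg
Hairpin in the last section, n1587 to n1609: agcgcaaguCAUCAgcuugcguu
C1246 is the first capital of the beak tip as printed and A1360 that of the first hairpin in helices 35 to 40. C1399 and A1400 are capitals in the second, and C1599 and A1600 in the last. Other runs that can pair overlap these last hairpins. Those of n1395 to n1420 hold C1399 and A1400 in a run, and those of n1597 to n1612 hold C1599 and A1600. No structure was used to choose between them.

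Depth differed between the experiments and set the precision. The median effective depth over the head's A and C was 287 to 700 reads in the 6 treated pre-40S libraries and 21549 to 33825 in the 6 treated mature libraries. The 219 members reached 50 reads in each treated pre-40S library and 1000 in each mature library. In the untreated pre-40S libraries 47 members fell below 50 reads, all of them in WT replicate 1, whose median depth was 70. Rates carry counting error beside the spread over replicates, and no source used here mentions molecular identifiers. U1191 in the loop of helix 31, which in mature yeast ribosomes is the hypermodified base m1acp3-pseudouridine and is misread without DMS, differed between the particles. Its untreated rate was 18.9, 50.3 and 13.6% in WT pre-40S and 28.3 to 30.8% in mL pre-40S, against 84.9 to 86.2% in the 6 mature libraries. The groups did not overlap. How much mature 18S the pre-40S preparations held was not tested.

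The head as a whole was more reactive, relative to the rest of 18S, in pre-40S particles than in mature ribosomes. The mean rate over its A and C divided by that over the other A and C of 18S was 1.02, 1.05 and 1.13 in the 3 treated WT pre-40S libraries and 1.01, 1.05 and 1.11 in the mL libraries. In mature ribosomes it was 0.652, 0.669 and 0.699 in BY4741 and 0.713, 0.708 and 0.681 in the deletion strain. Each pre-40S library lay above each mature one. The difference was larger over A than over C. Over A alone the ratio was 1.15 to 1.31 in pre-40S and 0.664 to 0.760 in mature libraries. Over C alone it was 0.803 to 0.940 against 0.744 to 0.803, so the pre-40S and mature ranges met. The plot of the head's rate relative to the rest of 18S shows the values over A and C and over A alone by library. Against the 5′ domain alone the ratio was 1.04 ± 0.0858 in WT pre-40S and 0.683 ± 0.0254 in BY4741 (SD, n = 3 each). Against the central domain (n570 to n1140) it was 1.12 to 1.24 in pre-40S and 0.715 to 0.773 in mature libraries. Against the 3′ minor domain (n1626 to n1800) it was 0.794 to 0.886 and 0.485 to 0.544. Over C alone the direction against the central domain was the opposite, 0.780 to 1.05 in pre-40S and 1.06 to 1.31 in mature libraries.

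**Figure D1:**
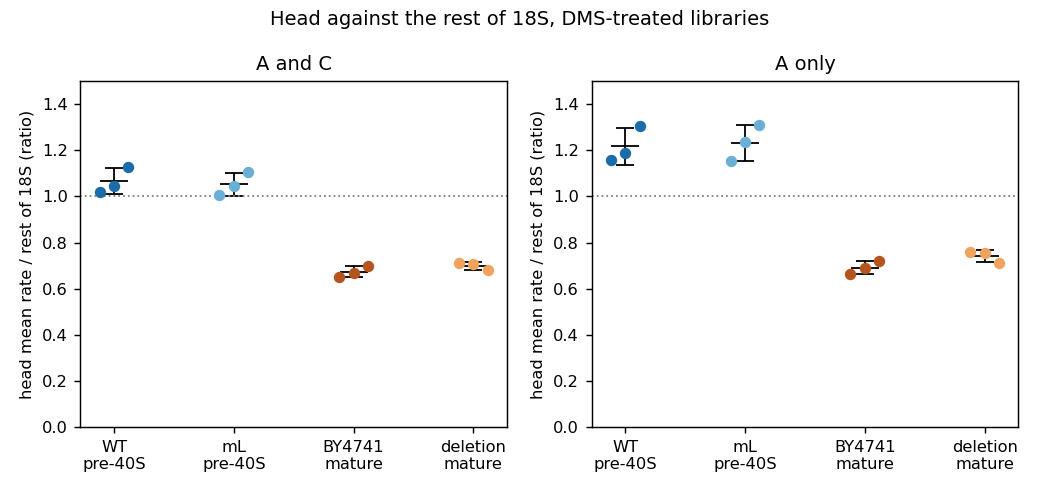
Mean DMS mutation rate of the head divided by that of the rest of 18S (ratio, no unit) in each treated library, over A and C (left) and over A alone (right). Points are libraries, long bars are means of 3 and short bars 1 SD; the 6 pre-40S libraries lie above 1 and the 6 mature libraries between 0.652 and 0.713 in the left panel.

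DMS raised the rate at most tested members in every kind of particle. A call needs an adjusted p under 0.05 in edgeR's quasi-likelihood test on mutation counts, adjusted over all tested sites of RDN37. In BY4741 161 of 219 members were called higher with DMS (background over all tested A and C, 77.9%), and in the deletion strain 176 (background 80.7%) were higher and 2 lower (background 1.82%). In WT pre-40S 102 of 124 tested members were called higher (background 82.8%), and in mL 128 of 155 (background 81.5%). These shares stood close to their backgrounds. With a median library factor the counts became 137 higher and 13 lower in BY4741, 164 and 14 in the deletion strain, 85 and 4 in WT and 118 and 1 in mL. The backgrounds above belong to the fit without a factor, and those with the median factor are not given here. A responded more often than C: in BY4741 109 of 114 A (background over A, 97.7%) and 52 of 105 C (background over C, 50.9%) were called. The median change over the head's A was 4.10 on the log2 scale in BY4741 and 0.88 over its C.

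A few exposed bases dominated the mature head, while reactivity was spread over many bases in pre-40S. In BY4741 33 of 219 members had a mean treated rate of at least 1%, in the deletion strain 50, in WT pre-40S 118 and in mL 122. These counts use rates as read, and pre-40S rates were higher over RDN37 as a whole. The median log2 change over all tested sites was then 1.29 in WT against BY4741 and 1.12 in mL against the deletion strain. The same counts over the rest of 18S are not given here. The 10 highest members carried 43.4% of the summed rate in BY4741 and 39.7% in the deletion strain, but 22.3% in WT and 20.5% in mL. The highest site of the mature head was C1246 at the tip of the beak, at 16.7, 14.0 and 19.2% in BY4741 and 17.6, 22.6 and 17.9% in the deletion strain. In WT pre-40S it ranked 82nd, with 2.33, 1.66 and 1.97%. The highest site of WT and mL pre-40S was A1329 in helices 35 to 40, at 13.0, 14.0 and 17.3% in WT and 14.0, 13.9 and 15.5% in mL. It read 1.77, 2.04 and 2.55% in BY4741. One base stood high everywhere: A1360, the first base of the AUUU loop printed above, ranked 2nd of 219 in all 4 treated groups, with 12.9% in WT, 13.5% in mL, 13.1% in BY4741 and 16.2% in the deletion strain.

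The 15 highest members of BY4741 and of WT pre-40S shared 5 sites (A1329, A1360, A1384, A1483 and A1503), and 4 of the 15 were C in BY4741 against 1 in WT. A1483 in helices 41 to 42 averaged 11.0 ± 2.97% in WT and 3.08 ± 0.771% in BY4741, and A1384 8.77 ± 0.739% and 2.17 ± 0.526% (SD, n = 3 each). The order of the members was alike within an experiment: Spearman's rho over the 219 sites was 0.94 between WT and mL and 0.98 between BY4741 and the deletion strain. It was 0.78 between WT and BY4741, and 0.60 over the 114 A alone. These are descriptions across sites of the same RNA, which share base composition and, within an experiment, the protocol.

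**Figure D2:**
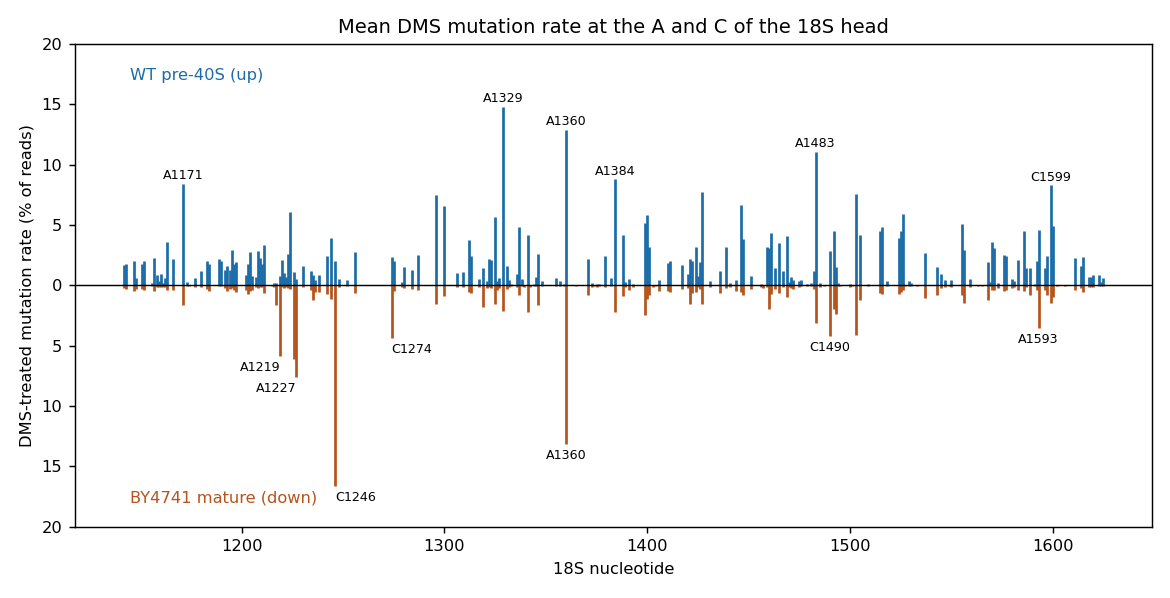
Mean treated mutation rate (% of reads) at each A and C of the head by 18S nucleotide, WT pre-40S upward and BY4741 mature downward, 3 libraries each. C1246 reaches 16.6% in BY4741 and 1.99% in WT, A1329 14.8% in WT and 2.12% in BY4741, and A1360 is high in both.

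The particle comparisons set each treated pre-40S group against a treated mature group, WT against BY4741 and mL against the deletion strain, with no library in common. Pre-40S libraries had higher rates at most sites, and the fit divides this out by a library factor, the median over tested sites, which averaged 0.69 in WT and −0.69 in BY4741 on the log2 scale. A change is thus relative to the typical tested site of RDN37. In WT against BY4741, 63 of 187 tested head sites were called higher in pre-40S (background over all 2089 tested sites, 12.4%) and 17 lower (background 16.3%). In mL against the deletion strain 64 were higher (background 12.9%) and 20 lower (background 19.2%). Among the 542 tested sites of 18S outside the head, 22.1% were called higher and 16.2% lower in WT against BY4741. The median change over the head was 0.81 in WT against BY4741, 1.76-fold, and 0.53 in mL against the deletion strain, 1.44-fold, against −0.04 and −0.03 over all tested sites. Most tested sites of RDN37 lie in 25S, 1293 of the 2089 in WT against BY4741, where 5.72% were called higher. The 5′ domain of 18S moved in the same direction as the head, with medians of 0.62 and 0.57. In it 30.6% and 28.5% of tested sites were called higher, close to the 33.7% and 34.2% of the head. The difference between the domains was not tested. The median change per site was 0.81 over A and 0.82 over C in WT against BY4741, and 0.56 and 0.39 in mL against the deletion strain. These medians weigh each site equally, unlike the ratios of mean rates above, in which the most reactive sites weigh most.

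With a factor taken from 18S sites alone, 40 head sites were called higher (background 6.65%) and 32 lower (background 28.1%) in WT against BY4741, and 45 (background 8.59%) and 29 (background 27.1%) in mL against the deletion strain. With no factor the counts were 129 higher (background 44.5%) and 6 lower (background 4.21%), and 125 (background 49.4%) and 9 (background 6.28%). The median over all tested sites then moved to 1.29 and 1.12. Sites called higher in both comparisons numbered 51 (background over the 2082 sites tested in both, 7.73%), which is 81.0% and 79.7% of the 2 lists. Sites lower in both numbered 15 (background 14.1%), which is 88.2% and 75%. None was called in opposite directions. The comparisons set the same 2 experiments against each other, with like profiles within each, so their overlap is not independent support. Under all 3 scalings and in both comparisons 30 sites were higher (16% of the 187 tested, background 4.47%) and 6 lower (3.21%, background 3.89%). These backgrounds cover all of RDN37, and those over the rest of 18S are not given here. The share of lower sites stood near the background, and both sets are described next.

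The 6 sites that were lower in pre-40S under every scaling lay at the base and the tip of the beak and on the A-site side of helix 34: A1217, A1219, A1226, A1227, C1246 and C1274. The 6 averaged 0.495 to 0.808 times the mean of the rest of the head in the 6 treated pre-40S libraries and 10.4 to 13.6 times it in the 6 treated mature ones. They were picked by their rates in these same libraries, so these ratios describe the selection and are no separate test. A1227, in the base of the beak, read 0.229, 0.578 and 0.830% in WT and 0.333, 0.635 and 1.48% in mL. It read 7.09, 7.22 and 8.58% in BY4741 and 8.07, 9.19 and 8.67% in the deletion strain. Every mature library lay above every pre-40S library, and the rate fell by 5.31 on the log2 scale in WT against BY4741 (SE 0.269, adjusted p = 1.2e-11, edgeR) and by 4.58 in mL against the deletion strain (SE 0.255).

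A1226, its neighbour, read 1.04, 0.199 and 2.10% in WT and 5.78, 5.67 and 6.78% in BY4741, a change of −3.82 (SE 0.289). Without DMS it read 0.901, 3.75 and 0.865% in WT, so its treated rate in WT was not above its own background. In mL it averaged 1.88 ± 0.496% with DMS and 1.06 ± 0.179% without. A1219 read 0.504, 0.685 and 1.17% in WT against 5.83, 5.29 and 6.49% in BY4741, a change of −4.34 (SE 0.262). A1217 was read as 0.258, 0.235 and 0% in WT against 1.43, 1.58 and 1.81% in BY4741, a change of −4.42 (SE 0.449). All 4 of these A are in the run guccAgAcacaauAAggauugaC, and at each of them the mature libraries lay above the pre-40S libraries. The same 4 sites fell by 2.90 to 4.58 in mL against the deletion strain.

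C1246, in the CUCU loop at the beak tip, changed by −4.37 (SE 0.224) in WT against BY4741 and by −4.01 (SE 0.180) in mL against the deletion strain, whose rates are given above. The share of reads at this site that counted as effective depth was 65.5 to 85.7% in treated pre-40S and 88.7 to 89.3% in treated mature libraries, and its part in the difference was not tested. C1274, on the 5′ strand of helix 34, is the counterpart of a bacterial base that contacts the A-site transfer RNA. It read 1.34, 2.40 and 3.41% in WT, 2.79, 2.09 and 2.64% in mL, 4.04, 3.70 and 5.45% in BY4741 and 4.98, 5.44 and 4.38% in the deletion strain. The pre-40S and mature values did not overlap but lay close, and the change was −2.35 (SE 0.268) and −2.20 (SE 0.215).

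Of the 9 other sites lower in both comparisons, C1235 lies at the base of the beak, A1319, A1346 and A1360 in helices 35 to 40, A1460, C1490, A1493 and A1503 in helices 41 to 42, and A1593 near the 3′ end. With no library factor none of the 9 was called lower in WT against BY4741, and C1235, C1490 and A1493 were still called lower in mL against the deletion strain. C1490 read 2.53, 2.71 and 3.23% in WT and 3.85, 3.73 and 5.05% in BY4741, without overlap, while A1503 was higher in WT at 6.15, 7.70 and 8.94% than in BY4741 at 4.04, 3.54 and 4.68%. A1503 rose less from mature to pre-40S than the typical site, which is what its call states, and with no factor it was called higher in WT against BY4741.

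**Figure D3:**
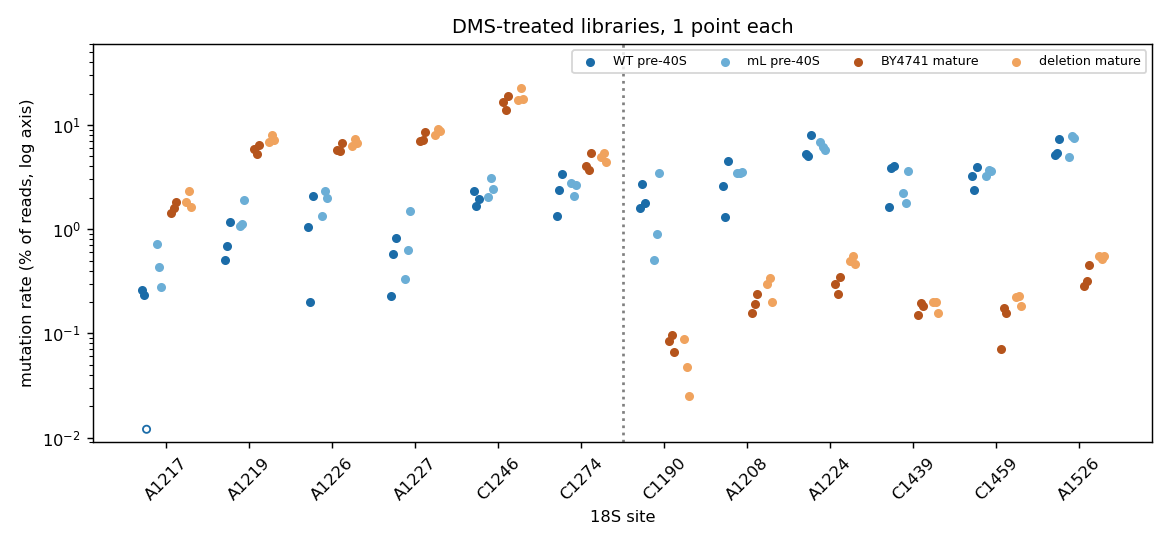
Treated mutation rate (% of reads, log axis) in each of 12 libraries at the 6 sites lower in pre-40S under every scaling (left of the dotted line) and at 6 of the 30 sites higher under every scaling (right). Filled points are libraries with mutated reads, and the open circle is a WT library with 0 mutated reads at A1217, drawn near the lower edge; left of the line mature libraries lie on top, right of it pre-40S libraries.

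The 30 sites higher under every scaling, 17 A and 13 C, were spread over the head: 2 on the neck side (n1141 to n1183), 2 in helix 31, 3 on the helix 32 side, 4 in the beak, 5 in helices 35 to 40, 1 on the 3′ strand of helix 34, 10 in helices 41 to 42 and 3 in the last section. Section bounds are approximate. Their changes ran from 1.26 to 3.27 in WT against BY4741 and from 0.85 to 3.61 in mL against the deletion strain. C1190, next to U1191 in the P-site loop of helix 31, had the largest change in both. It read 1.61, 2.71 and 1.79% in WT and 0.0848, 0.0960 and 0.0656% in BY4741, a change of 3.27 (SE 0.556, adjusted p = 0.00012, edgeR). In mL it read 0.503, 0.901 and 3.44% and in the deletion strain 0.0884, 0.0471 and 0.0249%, a change of 3.61 (SE 0.774). Without DMS it averaged 0.0283% in BY4741 and 0.0173% in the deletion strain, so both changes are against a small treated rate. In mL against the deletion strain it met the filters in 7 of 12 alternative fits. The 3 mL values were spread over a wider range than the WT values, and all 6 pre-40S values lay above the mature ones. The mutation rate at U1191 differed between the particles in these treated libraries too. It was 13.3 to 31.8% in WT, 7.03 to 21.1% in mL and 81.2 to 83.9% in the mature libraries. Its part in the change at C1190 was not tested.

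C1195, on the other side of the same loop, read 1.76, 3.98 and 2.96% in WT and 0.144, 0.220 and 0.257% in BY4741, a change of 2.42 (SE 0.446). A run of 3 followed it, A1208, C1209 and C1210, on the strand that leads from helix 32 into the beak. A1208 read 2.61, 1.32 and 4.55% in WT, 3.47, 3.47 and 3.50% in mL, 0.156, 0.191 and 0.237% in BY4741 and 0.301, 0.338 and 0.198% in the deletion strain. Its change was 2.50 in WT against BY4741 and 2.47 in mL against the deletion strain. C1209 changed by 2.50 and 2.51, and C1210 by 2.56 in mL against the deletion strain. C1210 had an untreated rate of 1.10, 1.13 and 0% in WT, against treated rates of 1.64, 1.54 and 2.10%.

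Inside the beak, higher and lower bases alternated over a few nucleotides. A1224, 2 positions before A1226, read 5.29, 5.06 and 7.99% in WT and 6.83, 6.09 and 5.75% in mL. It read 0.295, 0.237 and 0.348% in BY4741 and 0.497, 0.547 and 0.462% in the deletion strain. The change was 3.00 (SE 0.216) and 2.46 (SE 0.193), of the opposite sign to that of A1226 and A1227. C1220, A1223 and A1230 averaged 2.10, 2.57 and 1.61% in WT and 0.172, 0.188 and 0.152% in BY4741, all 3 called higher. In mL the averages at these 3 were 1.93, 2.04 and 1.91%, close to the 1.88% of A1226 there.

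In helix 34, 1 site on each strand was called in both comparisons. On the 3′ strand C1439 read 1.64, 3.86 and 4.03% in WT and 0.150, 0.194 and 0.185% in BY4741, a change of 2.72 (SE 0.329), and 2.59 (SE 0.308) in mL against the deletion strain. A1427, the counterpart of a bacterial base stacked next to the A site, read 5.30, 6.56 and 11.4% in WT and 1.22, 1.92 and 1.59% in BY4741. It was called in WT against BY4741 (change 0.85, adjusted p = 0.01, edgeR) and not in mL against the deletion strain (0.43, adjusted p = 0.07, edgeR), and the difference between the comparisons was not tested. On the 5′ strand the site was C1274, which fell, although 3 of the 4 sites tested there lay higher in WT against BY4741. The section medians were 0.79 on the 5′ strand and 0.71 on the 3′ strand in that comparison.

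Helices 35 to 40 and 41 to 42, which hold 54 and 59 of the 219 members, held 5 and 10 of the 30 higher sites. A1300 averaged 6.56% in WT, 6.79% in mL, 0.851% in BY4741 and 1.30% in the deletion strain, and A1446 6.65, 6.36, 0.587 and 0.974%. C1379 read 2.68, 3.09 and 1.61% in WT and 0.175, 0.110 and 0.241% in BY4741, a change of 2.49 (SE 0.407). C1459 read 3.25, 2.40 and 3.93% in WT and 0.0704, 0.174 and 0.158% in BY4741, with changes of 3.19 (SE 0.390) and 2.91 (SE 0.247). At these 4 sites no pre-40S library fell as low as any mature library. In the helix 41 stretch, A1515 and A1516 and the run A1524 to A1526 were higher in both comparisons and C1490, A1493 and A1503 lower. A1526 read 5.13, 5.39 and 7.33% in WT, 4.93, 7.82 and 7.51% in mL, 0.288, 0.319 and 0.449% in BY4741 and 0.555, 0.514 and 0.551% in the deletion strain, changes of 2.70 and 2.57.

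In the last section, which ends at n1625 and holds bases of the P site, 11 of 25 tested sites were higher and 1 lower in each comparison, with medians of 1.03 and 0.89. A1576, next to G1575, which carries the m7G made by Bud23 between the P and E sites, averaged 2.48 ± 1.18% in WT and 0.467 ± 0.106% in BY4741, a change of 0.97 (adjusted p = 0.026, edgeR). It averaged 3.67 ± 0.372% in mL and 0.627 ± 0.141% in the deletion strain, a change of 1.40. A1577 changed by 1.20 and 0.94 and was called in both. In WT against BY4741 the 18S factor ended both calls (adjusted p = 0.26 for A1576 and 0.066 for A1577, edgeR). So did leaving out WT replicate 1 or 3 for A1576 (0.22 and 0.17) and WT replicate 2 for A1577 (0.072). A1586 read 4.45, 3.74 and 5.42% in WT and 0.393, 0.359 and 0.529% in BY4741. It lies one base before the hairpin printed last. The bases C1599 and A1600, capitals there, were also higher in both comparisons, with C1599 at 8.28 ± 1.71% in WT and 1.42 ± 0.361% in BY4741.

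**Figure D4:**
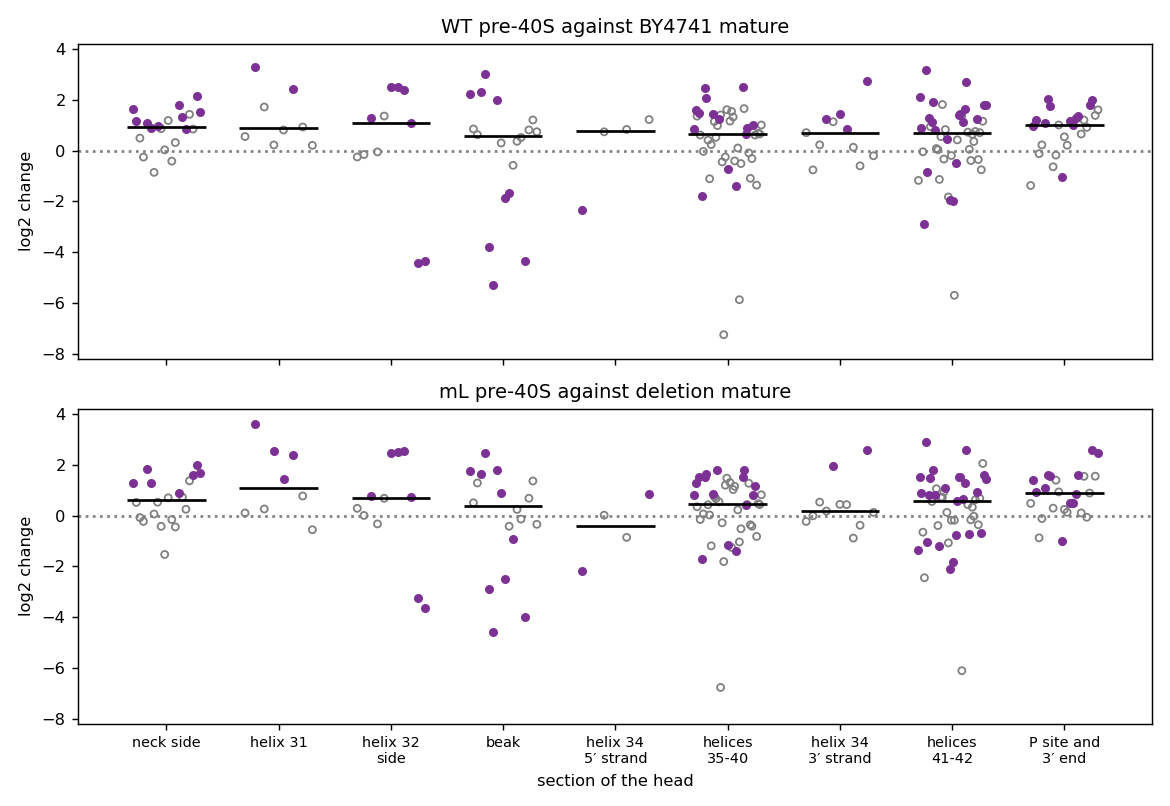
Change between treated pre-40S and mature particles (log2, relative to the typical tested site) at each tested A and C of the head, by section in 5′ to 3′ order; filled points passed an adjusted p of 0.05, open points did not, and bars are section medians. Medians lie above 0 in all 9 sections for WT against BY4741 and in 8 of 9 for mL against the deletion strain, with the lowest filled points in the helix 32 side and the beak; open points reach −7.26.

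By section, the median change in WT against BY4741 was lowest in the beak at 0.57 and highest on the helix 32 side at 1.07, which held 5 higher and 2 lower calls among 11 tested sites. In mL against the deletion strain the medians ran from −0.42 on the 5′ strand of helix 34, where 4 sites were tested, to 1.10 in helix 31. On the neck side 10 of 20 tested sites were higher and none lower in WT against BY4741, and 7 and none in mL against the deletion strain, beside the 12.4% higher and 16.3% lower, and 12.9% and 19.2%, over all tested sites. In raw terms the mean treated rate of the beak was 1.73 ± 0.294% in WT and 2.04 ± 0.273% in BY4741, the one section where the mature value exceeded the WT value. In helix 31 it was 1.87 ± 0.562% and 0.292 ± 0.0540%.

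Between mL and WT pre-40S particles, which differ in the form of Rrp5, none of 106 tested head sites was called with edgeR (background over 1124 tested sites, 0.267%) or with DESeq2. At an unadjusted p under 0.05, 3 were higher (background 3.83%) and 3 lower (background 4.09%), and with DESeq2 none was. The median change was −0.05. The smallest adjusted p was 0.36, at C1537 in helices 41 to 42, which averaged 1.76 ± 0.653% in mL and 2.66 ± 0.251% in WT. On the 3′ strand of helix 34 A1424, C1426 and A1427 had changes of −0.80 (SE 0.378), −0.92 (SE 0.484) and −0.51 (SE 0.241), and A1421 one of 0.74 (SE 0.359), each with an adjusted p of 0.60 or 0.64 (edgeR). C1426 read 1.20, 0.902 and 1.45% in mL and 1.55, 2.33 and 1.85% in WT. The groups did not overlap at this site.

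Between mature ribosomes with and without the snoRNAs snR31 and snR54, none of 162 tested head sites was called with edgeR or DESeq2, as at all 1881 tested sites (background 0%). At an unadjusted p under 0.05, 33 head sites were higher in the deletion strain (background 8.45%) and 7 lower (background 7.34%), and 23 passed in either direction with DESeq2. In the neighbouring central domain of 18S 45 of 203 tested sites were higher at that threshold, and in 25S 46 of 1164. The median change over the head was 0.12, against −0.01 over all tested sites. With a factor from 18S sites alone it was 0.02, against −0.11 over all tested sites. With no factor it was 0.51, against 0.38 over all tested sites, and 60 head sites were called higher and 1 lower. The share of all tested sites called with no factor is not given here. The treated deletion libraries had higher rates at most sites of RDN37, with a factor of 0.20 against −0.20 in BY4741. On the neck side 13 of 15 tested sites lay higher, with a median of 0.31.

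The smallest adjusted p in the deletion comparison, 0.13 (edgeR), was shared by A1436, A1329 and A1469. A1329 read 3.61, 3.86 and 3.30% in the deletion strain and 1.77, 2.04 and 2.55% in BY4741, a change of 0.37 (SE 0.0865) once the factor is divided out. The groups did not overlap. A1436, on the 3′ strand of helix 34, averaged 1.22 ± 0.202% and 0.653 ± 0.155%, and A1469 1.67 ± 0.113% and 0.927 ± 0.0572%. The largest fall was at A1193 in the loop of helix 31, which read 0.252, 0.131 and 0.138% in the deletion strain and 0.284, 0.890 and 0.316% in BY4741, a change of −1.91 (SE 0.540, adjusted p = 0.18, edgeR). BY4741 replicate 2 stood well above the other 5 libraries there. These sites were chosen after their values were seen.

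**Figure D5:**
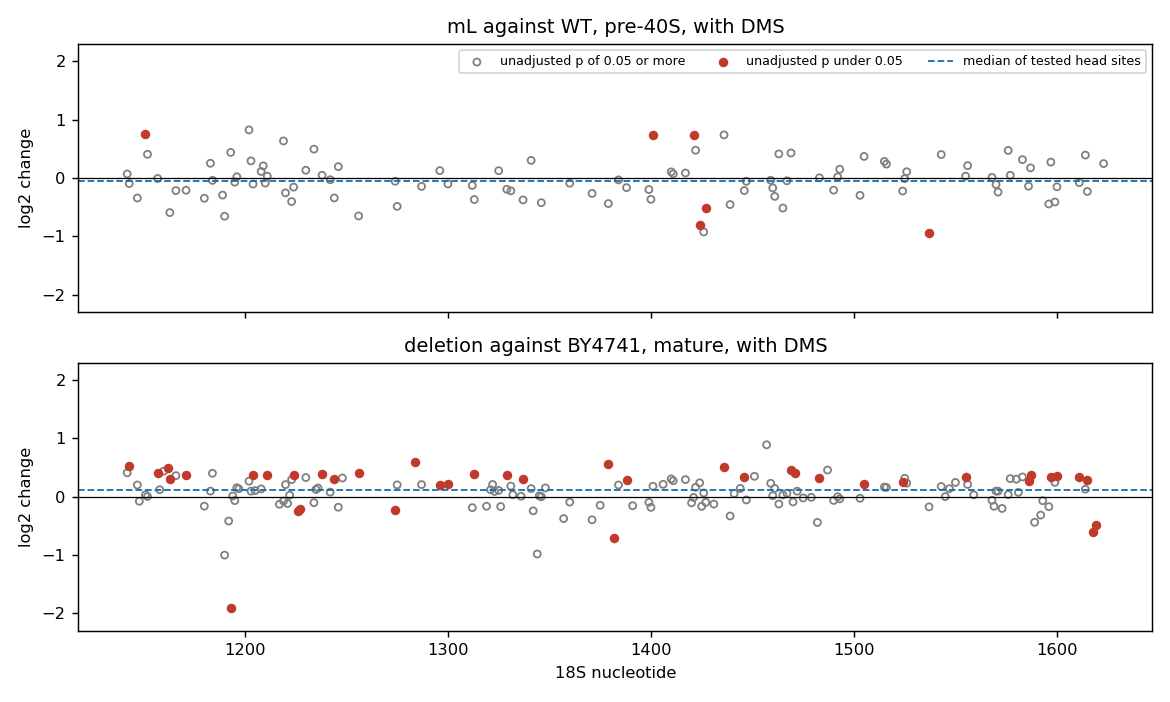
Change in treated rate (log2) at each tested A and C of the head by 18S nucleotide, mL against WT pre-40S (top, 106 sites) and deletion against BY4741 mature (bottom, 162 sites); filled points have an unadjusted p under 0.05 and the dashed line is the median. No point passed an adjusted p of 0.05, and the dashed line lies at −0.05 in the top panel and at 0.12 in the bottom panel.

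Without DMS the head was near background. The median untreated rate over its A and C was 0.0692% in WT, 0.116% in mL, 0.0457% in BY4741 and 0.0463% in the deletion strain. None of 22 tested head sites was called between mL and WT (background over all bases, 1.28%) and none of 219 between the deletion strain and BY4741 (background 0%) with edgeR or DESeq2. At an unadjusted p under 0.05 edgeR gave none between mL and WT (background 2.55% higher and 2.76% lower), and 7 higher (background 1.22%) and 6 lower (background 2.17%) between the deletion strain and BY4741. DESeq2 gave 0 and 2 at that threshold. The highest untreated member was A1593 in WT and mL pre-40S and in both mature strains. It read 4.23, 5.8 and 6.64% in WT, 2.15, 8.48 and 6.81% in mL, 0.107, 2.07 and 0.600% in BY4741 and 0.833, 0.502 and 0.598% in the deletion strain. Its treated rate of 4.56 ± 1.53% in WT was no higher than its untreated one, so it is no measure of exposure there. C1280, which is acetylated to ac4C by Kre33, read 1.35, 3.07 and 1.34% untreated in WT, 2.42, 1.34 and 2.57% in mL, 0.209, 0.285 and 0.260% in BY4741 and 0.234, 0.259 and 0.225% in the deletion strain. The untreated pre-40S values lay above the mature values, and with DMS the rate at C1280 was 1.51 ± 0.711% in WT and 0.208 ± 0.0205% in BY4741, close to the untreated values in each.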

How the data were processed

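The deposited files hold mutated-read counts and effective depths (also counts) per RDN37 nucleotide, with their quotient as a fraction, which the authors computed. The fraction equals mutation count over effective depth within 5e-07. Alignment used Bowtie2, per the submitters' processing notes, with no version. No chromosome coordinates are printed, because the build was not given in the sources used here, nor were the mutation counter and its filters. Reads were single-end, 100 bp. At most 1.32% of sites had identical counts in any 2 libraries.

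Mutation counts were tested per site with edgeR 4.0.16 (quasi-likelihood, R 4.3.3). The offset was log effective depth plus a log library factor, the median over tested sites of rate over geometric mean rate. The DMS effect was tested without a factor. Each fit held only the 6 libraries compared, without a replicate block, and p-values were Benjamini-Hochberg adjusted over all tested sites. An SE is the change over the square root of F. Minimum effective depth was 50 (pre-40S) or 1000 (mature). In treated comparisons an A or C entered with 30 or more mutations summed over its 6 libraries and a treated mean of 2 times the untreated mean or more, in at least 1 experiment for particle comparisons. The others took all bases with at least 10 mutations. The script was tested on simulated data.

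Alternatives were DESeq2 1.42.0, stricter depth, no mutation minimum, other factors, a replicate block, and leaving out each library. A stricter background filter was chosen after seeing the data. Named sites were, in each treated comparison, up to 10 called rises and 10 called falls with groups that do not overlap, the 15 highest sites of BY4741 and WT, and known bases with their neighbours within 3 nucleotides. Other named sites were chosen after their values were seen. Members, sections and lists were chosen with earlier results of these data known. Same-numbered replicates did not deviate together: the correlation of their deviations from group means ran from −0.24 to 0.04.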

Additional observations from a re-analysis of the deposited data

Results flagged for a closer look

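A1573, near the P site and a neighbour of G1575, moved in opposite directions in the particle comparisons, and the difference was not tested. Its change was −1.38 in WT against BY4741 and 0.48 in mL against the deletion strain, on the log2 scale relative to the typical site, and neither was called (adjusted p = 0.17 and 0.46, edgeR). It read 0.186, 0.189 and 0.306% in treated WT and 0.654, 0.742 and 0.938% in treated mL. The mL values lay above the WT values. Before the library factor was divided out, A1573 averaged 0.227% in treated WT and 0.221% in treated BY4741. A site was counted here when, after that division, its groups did not overlap in both comparisons and lay in opposite directions. By this measure 3 head sites moved in opposite directions. The share over all tested sites is not given here.

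Some G and U of the head, which none of the comparisons above use, were also called higher with DMS (edgeR). These were 6 G and 16 U in BY4741 and 6 G and 15 U in the deletion strain, of 135 G and 131 U tested in each. Over all of RDN37 5% of G and 15.7% of U were called higher in BY4741, and 7.39% and 19.8% in the deletion strain. Called lower in the head were 1 G and no U in BY4741, and 6 G and 2 U in the deletion strain. Among those called in BY4741 the G with the largest change was G1521, at 0.692% with DMS and 0.188% without, and the U with the largest change was U1307, at 0.226 and 0.0396%. Both rates are small beside those of the reactive A and C.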

How the results depend on the processing

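The direction of the head's median shift in the particle comparisons was the same under every alternative run, but the size and the split of calls depended on the library factor. With no factor the called head sites numbered 61 in deletion against BY4741, 135 in WT against BY4741 and 134 in mL against the deletion strain, against 0, 80 and 84. The shares of all tested sites called with no factor are given above for the particle comparisons only. Of the head sites called with the factor, 4 in WT against BY4741 and 7 in mL against the deletion strain had a change of the other sign without it. With the stricter background filter 77 of 149 sites were called in WT against BY4741, 64 higher and 13 lower. In mL against the deletion strain 81 of 149 were called, 65 higher and 16 lower. A minimum depth of 100 left 13 head sites and 8 calls in the DMS effect in WT, since WT replicate 1 without DMS is shallow. With the replicate block the strain comparisons, treated and untreated, still called 0 head sites, and the DMS effect called 164 in BY4741, 178 in the deletion strain, 96 in WT and 126 in mL.

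Leaving out each library in turn gave 0 calls in the strain comparisons, treated and untreated, 63 to 82 in WT against BY4741 and 65 to 81 in mL against the deletion strain. The DMS effect gave 148 to 170 in BY4741, 173 to 180 in the deletion strain, 88 to 116 in WT and 112 to 126 in mL. Shares over all tested sites are not given here for the stricter filter, the stricter depth, the replicate block or the left-out libraries.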
